A study of Rattus norvegicus with 18 samples.

Results

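The genes of oxidative phosphorylation were followed in the PFC of Sprague Dawley rat pups at P14, with the genes carried by the mitochondrial genome set against those carried by the nucleus. The choice used names and a count minimum. Members are the genes whose symbol begins with Mt-, Nduf, Uqcr, Atp5 or Cox4 to Cox8, together with Sdha, Sdhb, Sdhc, Sdhd and Cycs, and that reached at least 10 expected counts in every pup. Of the 32623 genes in each table, 112 carry such a name and 104 reached the minimum, 13 of them Mt-encoded and 91 nuclear. RNA was sequenced from 18 pups, 6 in each of 3 groups. Dams of the SAL group received saline by oral gavage. PNO pups were exposed to oxy through the breastmilk only, their dams being gavaged with 15 mg/kg/day from parturition until weaning. IUO dams received 10 mg/kg/day for 5 days, were raised by 0.5 mg/kg/day for 10 days to 15 mg/kg/day, were then mated, and stayed on that dose through gestation and until weaning, so that placental exposure was added to exposure after birth. No dam or litter is given for any pup, so the p-values measure the spread between these 18 samples, part of which may be shared within litters.

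Oxidative phosphorylation makes most of the ATP of a neuron. Electrons from NADH enter the inner mitochondrial membrane through complex I and electrons from succinate through complex II, pass through complex III and the carrier cytochrome c to complex IV, which reduces oxygen, and the proton gradient built on the way drives ATP synthase (complex V). Complexes I, III, IV and V mix subunits from both genomes, whereas complex II and cytochrome c are wholly nuclear, so that cells have to match transcription in the nucleus with that of the small circular genome, which is read as long transcripts and then cut into single mRNAs.

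The 8 names under the minimum were Cox6c-ps1, Cox7b2, Cox8b, Cox8c, Ndufa10l1, Ndufa13, Ndufb4l1 and Ndufs6. Ndufa13 came closest, with 1.43 to 14.5 expected counts per pup. On the other side of the limit, Cox7a1 had 13.9 to 44.2 expected counts and Cox4i2 had 28 to 67. Among the 91 nuclear members, 37 are named for complex I, 4 for complex II, 9 for complex III, 16 for complex IV and 17 for complex V, 7 are assembly factors of complex I (the Ndufaf genes), and Cycs encodes cytochrome c. Cox6b1, Ndufv3 and Uqcrb are each carried by 2 identifiers, and reads from near-identical copies and pseudogenes of such short genes may be divided between rows. Mt-nd4l overlaps Mt-nd4, Mt-atp8 overlaps Mt-atp6, and Mt-nd6 lies on the opposite strand from the other Mt-encoded members. The sources used here do not say that strand was kept, so reads from such overlaps cannot be told apart.

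Summed expected counts were between 18381819 and 26084780 per pup, with a median of 22726306. Markers of the cortex were found in every pup, with summed levels of 959.7 to 2412 CPM (counts per unit of sequencing depth after TMM scaling in edgeR) over 6 excitatory neuron genes. Markers of neighbouring structures varied widely, from 129 to 1595 CPM over 7 striatal genes and from 2.60 to 971 CPM over 6 choroid plexus genes. None of the genes of these 3 lists had an expected count of 0 in any pup, the lowest being 0.5 for Otx2 of the choroid plexus list, which rounds to 0. There are 3 libraries to keep in view. The fourth SAL pup had the highest Mt-encoded share of all, and the sixth SAL pup and the first PNO pup received the lowest quality weights when limma-voom estimated one per library, 0.269 and 0.31.

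Per length, the Mt-encoded mRNAs stood far above the nuclear ones. In the TPM values deposited by the authors, which are scaled to gene length and to a common total, the 13 Mt-encoded members lay between 3496 and 32844 (means over 18 pups), and the lowest of them was 2.18 times the highest nuclear member. The median Mt-encoded member was 44.5 times the median nuclear one. The 5 highest levels belonged to Mt-atp6, a proton channel subunit of ATP synthase, at 32844 ± 5439.7 TPM (SD, n = 18), and to the core subunits of cytochrome c oxidase, Mt-co1 at 31432 ± 5261 TPM, Mt-cox3 at 30828 ± 6234 TPM and Mt-co2 at 24402 ± 3679 TPM, and to Mt-atp8, a small ATP synthase subunit whose gene overlaps Mt-atp6, at 24497 ± 3814 TPM. The SDs are between pups, in which these genes rose and fell together, and the order of the first 3 within pups was not tested. Mt-cyb, the Mt-encoded subunit of complex III, was at 15873 ± 2634 TPM. All 7 Mt-encoded subunits of complex I lay below it, from Mt-nd2 at 11036 ± 2323 TPM down to Mt-nd5 at 3969.5 ± 636 TPM and Mt-nd6 at 3496 ± 573 TPM.

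**Figure D1:**
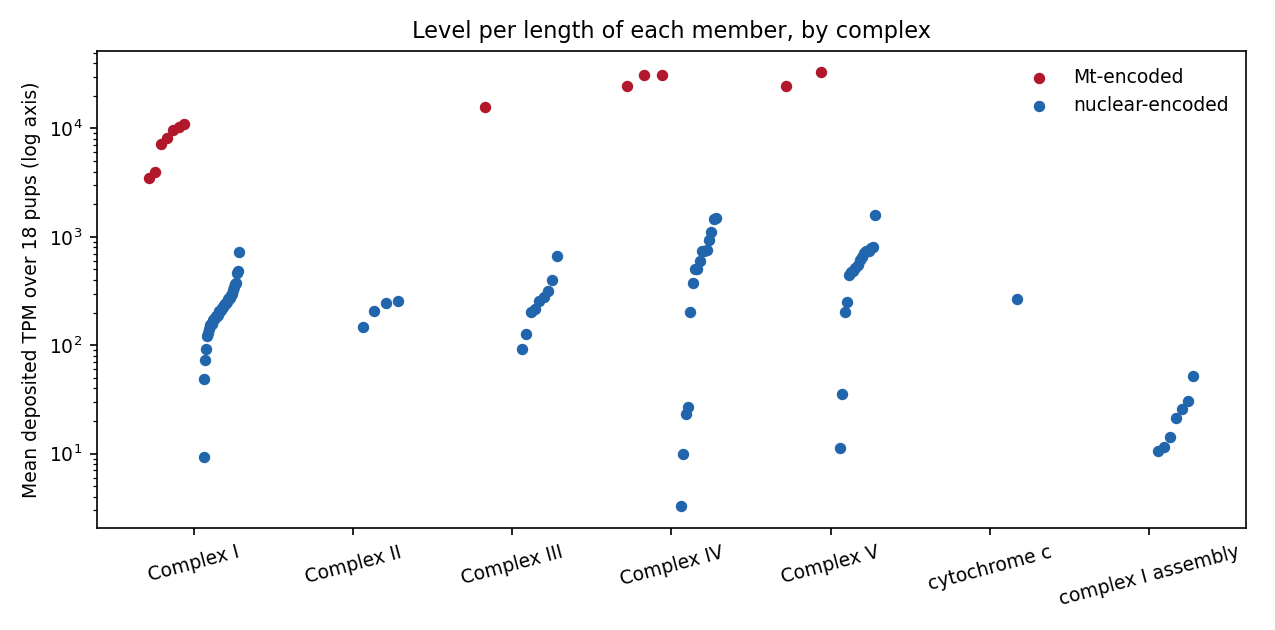
Mean deposited TPM over 18 pups (log axis) of each of the 104 members, by complex, with Mt-encoded members in red and nuclear members in blue. Every Mt-encoded point lies at or above 3496 TPM, and the highest nuclear point is Atp5b at 1602 TPM.

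Nuclear members also differed in level by complex. Median TPM was 555 for the 17 members of complex V and 552 for the 16 of complex IV, against 256 for complex III, 227 for complex II, 212 for complex I and 21.1 for the assembly factors of complex I. Atp5b, the catalytic beta subunit of ATP synthase, led all nuclear members at 1602 ± 126 TPM. Cox6a1 (1488 ± 178 TPM), Cox8a (1459.8 ± 182 TPM) and Cox4i1 (1106 ± 122 TPM), which surround the catalytic core of complex IV, came next. Ndufa4 was the highest of those named for complex I, at 731 ± 89.3 TPM, although its protein is now placed in complex IV. Uqcr11 led complex III (660.0 ± 148 TPM) and Sdhb, the iron-sulphur subunit of succinate dehydrogenase, led complex II (257 ± 14.6 TPM). Cycs was at 267 ± 46.2 TPM.

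Several subunits come in alternative forms, and the forms typical of heart and skeletal muscle or of testis were low. Cox6a2, the muscle form of Cox6a1, had 27.1 ± 19.4 TPM. Cox7a1, the muscle form, had 9.86 ± 3.13 TPM against 504 ± 76.5 TPM for Cox7a2. Cox4i2, known from lung, was at 3.26 ± 0.706 TPM, the testis form Cox6b2 at 23.1 ± 9.37 TPM, and the muscle form Cox8b, which failed the minimum, at 0.472 TPM. The 3 genes for the c subunit of ATP synthase encode the same mature protein and were all strongly expressed, with Atp5g3 at 734 ± 72.5 TPM, Atp5g1 at 610.5 ± 77.7 TPM and Atp5g2 at 514 ± 31.3 TPM. Skeletal and cardiac muscle markers summed to between 23.9 and 40.2 CPM per pup over 6 genes, of which 5 were tested. Ckm, a defining marker, was not tested and was at 0 counts in 7 pups.

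Because most nuclear members moved together from pup to pup, the promoters of 5 of them are shown, one for each complex, each being the highest expressed of its complex, among the genes named here, that holds a match to a motif of NRF1 or of the ETS family. NRF1 and the ETS factor GABPA are the classical activators of nuclear respiratory genes, and YY1 acts on many of them. Sequences are those of RefSeq on the GRCr8 build, from 250 bases before to 50 after the start of the gene, on the strand of the gene. Capitals mark GCATGCGC or its core CATGCGC (NRF1; the longer contains the shorter), CCGGAAG (ETS) and AAGATGG (YY1), each read on both strands. Ndufb8, an accessory subunit of complex I, is at chr1:253362887-253363186 (minus strand), Sdhb at chr5:158547684-158547983 (plus strand), Uqcrh, the hinge subunit of complex III, at chr5:134790833-134791132 (minus strand), Cox8a at chr1:213833574-213833873 (minus strand), and Atp5l, subunit g of ATP synthase (Atp5mg in RefSeq), at chr8:54130358-54130657 (minus strand).
Ndufb8: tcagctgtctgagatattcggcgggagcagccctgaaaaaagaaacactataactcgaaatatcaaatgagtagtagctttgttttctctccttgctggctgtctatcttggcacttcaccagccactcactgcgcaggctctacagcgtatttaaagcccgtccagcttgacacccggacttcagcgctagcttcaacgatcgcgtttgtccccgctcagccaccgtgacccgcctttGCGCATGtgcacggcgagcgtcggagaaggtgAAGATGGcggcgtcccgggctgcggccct
Sdhb: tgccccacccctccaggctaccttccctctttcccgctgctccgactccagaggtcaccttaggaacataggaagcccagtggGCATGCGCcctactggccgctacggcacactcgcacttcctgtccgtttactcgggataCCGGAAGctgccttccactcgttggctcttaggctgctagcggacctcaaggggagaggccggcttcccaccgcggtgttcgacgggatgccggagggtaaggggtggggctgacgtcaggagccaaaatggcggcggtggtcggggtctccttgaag
Uqcrh: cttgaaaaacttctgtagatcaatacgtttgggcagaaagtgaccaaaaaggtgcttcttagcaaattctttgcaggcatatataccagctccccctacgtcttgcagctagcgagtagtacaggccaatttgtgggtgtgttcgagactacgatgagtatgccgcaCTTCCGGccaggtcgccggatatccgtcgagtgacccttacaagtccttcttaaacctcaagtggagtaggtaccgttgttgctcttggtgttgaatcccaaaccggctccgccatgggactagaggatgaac
Cox8a: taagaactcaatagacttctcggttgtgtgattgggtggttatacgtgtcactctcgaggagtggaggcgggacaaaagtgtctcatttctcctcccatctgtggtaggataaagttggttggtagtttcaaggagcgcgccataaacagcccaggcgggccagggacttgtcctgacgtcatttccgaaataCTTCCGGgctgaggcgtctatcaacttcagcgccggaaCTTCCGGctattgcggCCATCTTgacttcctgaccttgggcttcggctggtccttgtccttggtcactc
Atp5l: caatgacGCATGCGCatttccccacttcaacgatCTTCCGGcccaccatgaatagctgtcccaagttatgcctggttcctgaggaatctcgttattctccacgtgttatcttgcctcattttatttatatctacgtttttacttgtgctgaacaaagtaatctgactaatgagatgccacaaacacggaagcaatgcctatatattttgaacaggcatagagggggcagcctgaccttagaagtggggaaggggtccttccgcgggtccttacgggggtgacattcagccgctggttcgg

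Of the 91 nuclear members, 77 could be matched to a RefSeq promoter, 62 by symbol and 15 by an older symbol. CCGGAAG was found in 20 of these 77 promoters (25.97%), against 8.75% of all 33469 promoters of the same length. Those 33469 were not selected for protein-coding or expressed genes, unlike the members. The core CATGCGC was found in 14 (18.2% against 3.77%), the longer GCATGCGC in 11 (14.3% against 2.47%) and AAGATGG in 18 (23.4% against 7.01%). A GC box (GGGCGG) was found in 32, or 41.6% against 33.1%. The median GC content was 57.0% in the member promoters and 51.7% in all promoters. These are counts of letters in a window, and no binding was measured.

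Mt-encoded members took up a large and variable part of each library. In SAL they made up 7.31% of the counts in the lowest pup, 10.1% at the median and 16.3% in the highest, with a mean of 10.7 ± 2.99% (SD, n = 6). The corresponding values were 8.04%, 12.5% and 13.7% in PNO, with a mean of 11.4 ± 2.53%, and 6.96%, 10.6% and 12.5% in IUO, with a mean of 10.2 ± 1.86%. The 3 groups overlapped over most of their range, and the highest and the second lowest pup of all 18 were both SAL pups. In bulk tissue, fewer cells of a type and less RNA per cell cannot be told apart.

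Nuclear members together took up far less. They made up 1.14%, 1.48% and 1.56% of the counts in the lowest, the median and the highest SAL pup, with a mean of 1.42 ± 0.157%. In PNO these were 1.31%, 1.47% and 1.72%, with a mean of 1.497 ± 0.188%. The IUO pups lay closer together, at 1.20%, 1.35% and 1.45%, with a mean of 1.33 ± 0.0851%. Again the groups overlapped, and the 2 highest values of all came from PNO pups.

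The balance between the genomes did not separate the groups. Mt-encoded counts exceeded nuclear ones by a log2 ratio of 2.89 ± 0.303 in SAL, 2.91 ± 0.257 in PNO and 2.91 ± 0.214 in IUO (mean ± SD, n = 6 each). Single pups ranged from 2.54 in IUO pup 5 to 3.46 in SAL pup 4, so that the differences between group means were a small fraction of the spread between pups of a group. These shares are sums over chosen genes and carry no test.

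**Figure D2:**
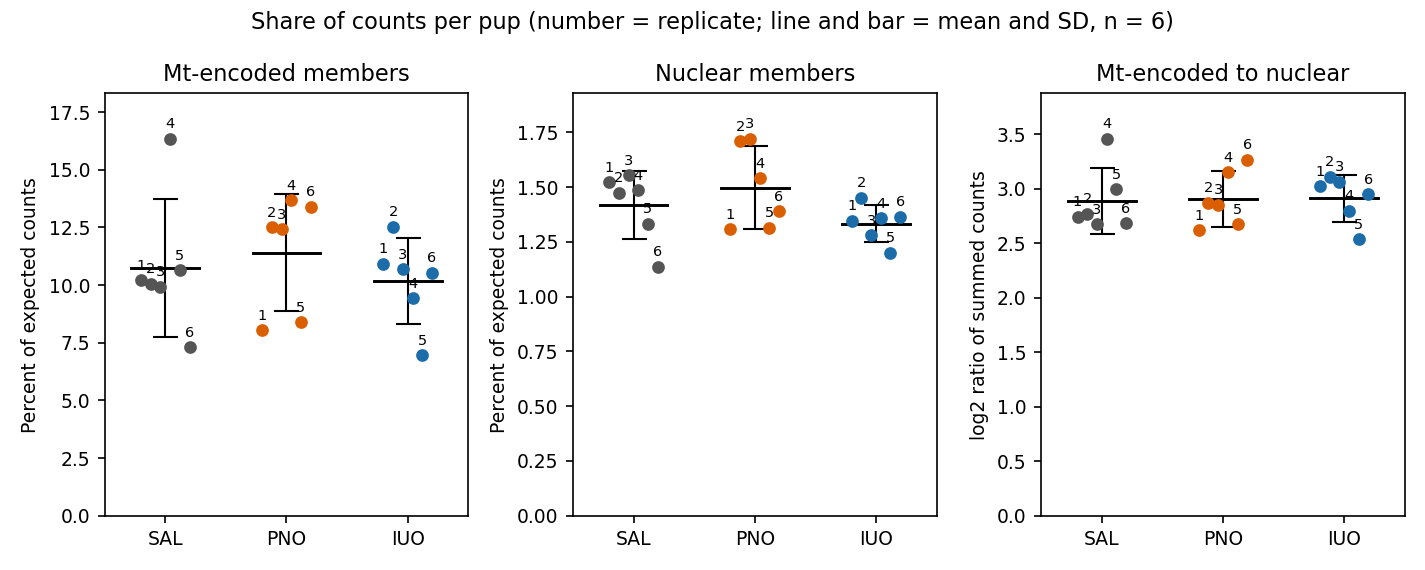
Percent of expected counts from the Mt-encoded members (left) and the nuclear members (middle), and the log2 ratio of the 2 sums (right), one numbered point per pup, with the mean and SD of 6 pups per group in black. SAL pup 4 stands alone at 16.3% Mt-encoded, while mean ratios are 2.89, 2.91 and 2.91 in SAL, PNO and IUO.

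Within the Mt-encoded set most proportions were similar in the 3 groups. Mt-co1 held 27.5 ± 0.91% of Mt-encoded counts over the 18 pups, Mt-cox3 12.98 ± 0.73%, Mt-atp6 11.9 ± 0.35% and Mt-cyb 10.1 ± 0.42%. In percentage points Mt-cox3 varied most between groups, with 11.96 to 12.8% in IUO, 12.5 to 14.4% in PNO and 12.5 to 13.8% in SAL. The IUO pups were at the low end, overlapping both other groups. The share of Mt-nd2 was 6.79 ± 0.33% in SAL, 6.30 ± 0.69% in PNO and 5.91 ± 0.69% in IUO, again with overlap. Mt-nd6, the smallest share, was the only one of the 13 whose IUO and PNO pups did not overlap. It lay at 0.960 to 1.06% in IUO and 0.844 to 0.951% in PNO, with SAL spanning both at 0.772 to 1.05%. Such a proportion has no counterpart over all genes, and in CPM the IUO and PNO pups of Mt-nd6 overlapped. These 3 genes were singled out after their values were seen.

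The members varied widely between pups of the same group. The mean log2 CPM of the Mt-encoded members was 12.30, 12.43 and 12.26 in SAL, PNO and IUO, with a pooled SD within groups of 0.37. That of the nuclear members was 6.45, 6.59 and 6.34, with a pooled SD of 0.21. On the log2 CPM scale the SD over 18 pups had a median of 0.36 for the Mt-encoded members and 0.26 for the nuclear ones, against 0.26 over all 15703 genes tested. Each Mt-encoded member was correlated with the mean of the other 12 at r between 0.86 and 0.99 (n = 18 pups), and the median nuclear member with the mean of the other 90 at r = 0.93. All such values come from the same libraries and share their scaling. The mean of the Mt-encoded members and the mean of the nuclear members were correlated at r = 0.81 (Spearman's rho 0.78) over 18 pups, and at r = 0.78 without SAL pup 4 and IUO pup 5, the 2 farthest from the median. Inside the groups, with 6 pups each, r was 0.84 in SAL, 0.82 in PNO and 0.89 in IUO, and rho was 0.60, 0.54 and 0.60.

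Not every nuclear member followed. While 62 of 91 had r above 0.9 with the rest, 8 had r under 0.5, namely Sdha, Ndufs1, Ndufaf1, Atp5a1, Ndufaf4, Ndufaf6, Cox6b2 and Cox6a2. Sdha, the flavoprotein of succinate dehydrogenase, ran against the others at r = -0.39, as did Ndufs1, the largest iron-sulphur subunit of complex I, at r = -0.33, and the assembly factor Ndufaf1 at r = -0.31. Sdha therefore parted from its partner Sdhb, whose r was 0.97. Atp5a1, the alpha subunit of ATP synthase, was the steadiest member, with an SD of 0.078 and r = 0.024. At the other end, Cox6a2 had an SD of 1.09 and the Ndufv3 row with a length of 327 bases an SD of 0.57.

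Postnatal exposure alone was examined by comparing PNO with SAL. No member passed the call, which asked for an adjusted p-value under 0.05 and at least a 1.5-fold change in edgeR's quasi-likelihood test, and 0% of the 15703 genes tested did. Fitted values nevertheless lay mostly on one side. All 13 Mt-encoded and 89 of 91 nuclear members had a value above 0, with medians of 0.13 and 0.14 on the log2 scale against 0.0033 over all genes tested. At an unadjusted p under 0.05, 3 members were higher and 0 lower in PNO, where 1.89% of all genes were higher and 2.6% lower. The smallest adjusted p of any member was 0.912.

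Ndufa10, an accessory subunit of complex I, had the smallest unadjusted p of these. Its level was 130.0, 141 and 153 CPM in the lowest, the median and the highest SAL pup and 151, 163 and 178 CPM in PNO. All PNO pups were above the SAL median, and the ranges only just overlapped. The fitted difference was 0.20 ± 0.06 (log2, SE; unadjusted p = 0.00358, adjusted p = 0.912 by edgeR). The other 2 were Uqcrc2, a core subunit of complex III (0.13 ± 0.06, unadjusted p = 0.0332 by edgeR), and Ndufs4, a late-assembling subunit of complex I (0.17 ± 0.08, unadjusted p = 0.0415 by edgeR). Cox7a1 (0.49 ± 0.26) and Atp5s, a factor named for ATP synthase (0.21 ± 0.12), followed. Among Mt-encoded members the widest difference was that of Mt-cox3 at 0.18 ± 0.22, smaller than its SE. Leaving out single pups moved the count of members higher at an unadjusted p under 0.05 to 11 without PNO pup 1, 8 without SAL pup 4 and 5 without PNO pup 5, and to 1 without PNO pup 2, PNO pup 3, SAL pup 5 or SAL pup 6. It was 2 without PNO pup 4, SAL pup 1 or SAL pup 2. The share of all genes higher went from 1.01% without SAL pup 6 to 4.32% without SAL pup 4 and was 4.1% without PNO pup 1. The Mt-encoded median was 0.31 without SAL pup 4 and 0.022 without SAL pup 6, and the nuclear median 0.059 without SAL pup 6.

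Exposure from before conception onward was examined by comparing IUO with SAL, which shares its control pups with the previous comparison. No member was called, nor any of the genes tested (0%). Here 11 of 13 Mt-encoded and 80 of 91 nuclear members had a fitted value below 0, with medians of -0.064 and -0.10 against -0.0073 over all genes. Only Cycs had an unadjusted p under 0.05, on the lower side, where 3.87% of all genes were, and 0 members were on the higher side, where 3.02% were.

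Cycs mRNA was at 31.3, 46.4 and 53.8 CPM in the lowest, the median and the highest SAL pup and at 27.2, 33.5 and 42.6 CPM in IUO. The IUO pups were lower at all 3 points, with overlapping ranges. This was a difference of -0.41 ± 0.14 (log2, SE; unadjusted p = 0.00945, adjusted p = 0.530 by edgeR), and leaving out each of the 12 pups in turn kept it between -0.50 and -0.36 with an unadjusted p under 0.05 every time. Next came Uqcrh at -0.29 ± 0.14, Ndufs1 at -0.15 ± 0.08, Cox6b2 at -0.51 ± 0.27 and Atp5i, subunit e of ATP synthase, at -0.32 ± 0.17, none with an unadjusted p under 0.05. The Mt-encoded median turned to 0.13 without SAL pup 4 and to 0.021 without IUO pup 5. Without SAL pup 6, 19 members in place of 1 were lower at an unadjusted p under 0.05, where 5.24% of all genes were, and there were 2 without SAL pup 4 or IUO pup 2 (2.81% and 4.18% of all genes).

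The time of exposure was examined by comparing IUO with PNO, 2 groups that share exposure after birth. No member was called, against 0.0446% of all genes tested (7 of 15703), and the smallest adjusted p was 0.0991 by edgeR, for Ndufa10. All 13 Mt-encoded and 90 of 91 nuclear members had a fitted value below 0, with medians of -0.19 and -0.25 against -0.00053 over all genes. At an unadjusted p under 0.05, 37 of 104 members were lower in IUO, where 9.14% of all genes were, and 0 were higher, where 6.14% were. All 37 were nuclear. DESeq2 put 4 members (Ndufa10, Ndufs4, Uqcrc2 and Ndufv2) under an adjusted p of 0.05, all below 1.5-fold, where it put 2.78% of all genes. With limma-voom 40 members were under it, where 12.9% of all genes were, and 2 of them, Cox7a1 and Cox6b2, also reached 1.5-fold, which 4.48% of all genes did.

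**Figure D3:**
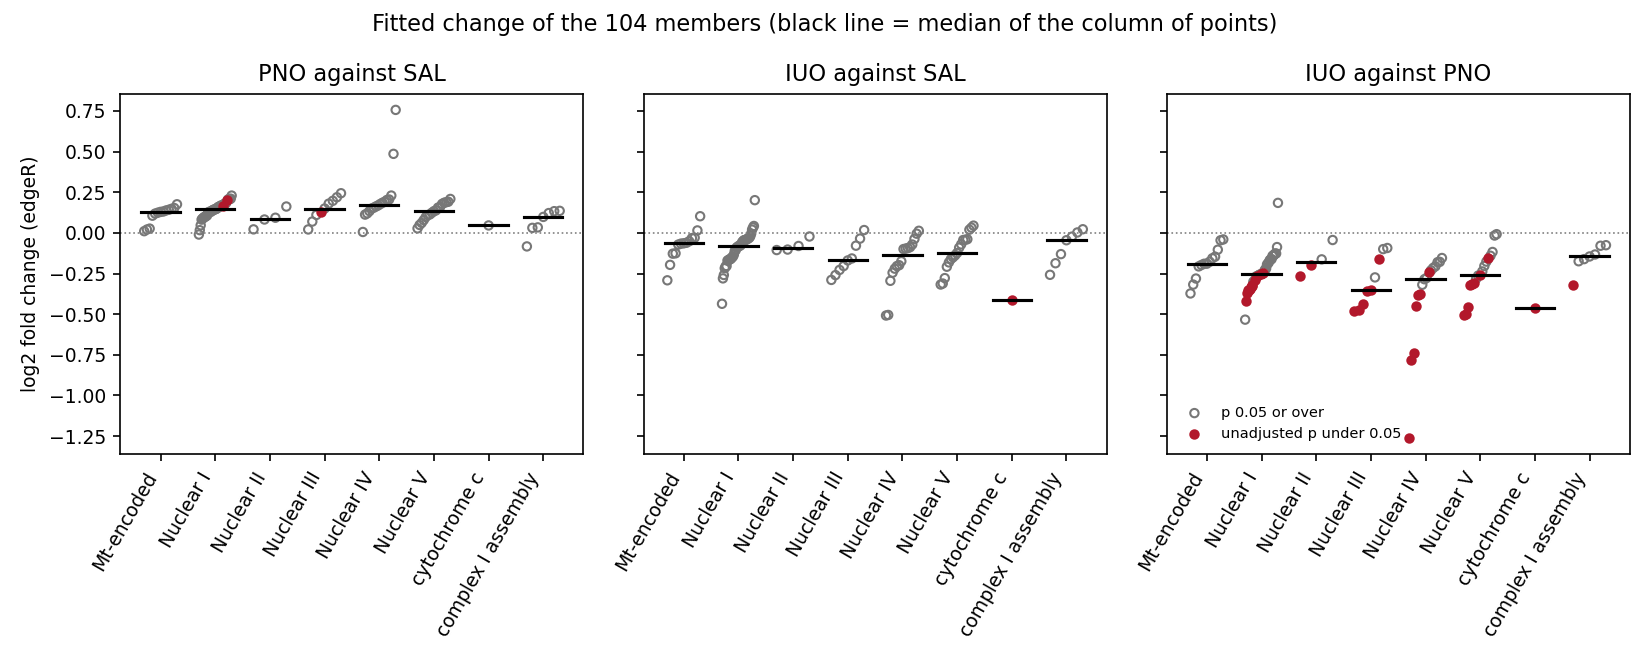
Fitted log2 fold change (edgeR) of the 104 members in the 3 comparisons, by genome and complex, with the median of each set as a black line and members at an unadjusted p under 0.05 filled in red. Between IUO and PNO the line of the Mt-encoded members is at -0.19, the lines of nuclear complexes I to V lie from -0.35 to -0.18, and all 37 filled points are nuclear.

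By complex, the members lower in IUO at an unadjusted p under 0.05 were 12 of 37 for complex I, 2 of 4 for complex II, 6 of 9 for complex III, 7 of 16 for complex IV, 8 of 17 for complex V, 1 of 7 assembly factors, and Cycs. Median differences were -0.25 for complex I, -0.18 for complex II, -0.35 for complex III, -0.28 for complex IV and -0.26 for complex V, and -0.15 for the assembly factors. No complex had a median above 0. Among the nuclear members only Ndufa4l2, a relative of Ndufa4, had a fitted value above 0, at 0.18 ± 0.15.

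In complex I, Ndufa10 was the only member of all 104 whose IUO and PNO pups did not overlap, which 1.66% of all genes tested did not. Its IUO pups lay at 127, 135 and 149.9 CPM (lowest, median and highest) and its PNO pups at 151, 163 and 178 CPM. The difference was -0.25 ± 0.06 (log2, SE; unadjusted p = 0.000656, adjusted p = 0.0991 by edgeR), and stayed between -0.27 and -0.22 when each pup was left out. Ndufv2, a subunit of the NADH-binding module, was at 116, 135 and 147 CPM in IUO and 137, 176 and 190.3 CPM in PNO, with overlap (-0.33 ± 0.10, adjusted p = 0.137 by edgeR). Ndufs4 was at 102, 119.6 and 130.2 CPM in IUO and 128, 141 and 157 CPM in PNO, overlapping at the edge (-0.26 ± 0.08, adjusted p = 0.140 by edgeR). The highly expressed Ndufa4 differed by -0.33 ± 0.14, Ndufb9 by -0.30 ± 0.16 and Ndufb8 by -0.22 ± 0.12.

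In complex II all 4 fitted values were below 0. Sdhc, a membrane anchor of the complex, was at 134, 155 and 166 CPM in IUO and 153, 200.4 and 201 CPM in PNO, a difference of -0.26 ± 0.10. Sdhb differed by -0.20 ± 0.09 and the other anchor, Sdhd, by -0.16 ± 0.10. Sdha, by contrast, was at 185, 200.3 and 216 CPM in IUO and 198, 200.2 and 235 CPM in PNO, with medians nearly equal and a difference of -0.044 ± 0.06. Whether the 4 subunits differ from each other was not tested.

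In complex III, Uqcrh had IUO levels of 84.9, 104 and 113 CPM and PNO levels of 100.05, 145 and 169 CPM, and the PNO median lay above every IUO pup. The difference was -0.44 ± 0.14 (unadjusted p = 0.00671, adjusted p = 0.168 by edgeR), with -0.53 to -0.38 when each pup was left out. Uqcr11 differed by -0.48 ± 0.20, and Uqcrc2, a larger core protein, by -0.16 ± 0.06. For Cycs itself, IUO pups were at 27.2, 33.5 and 42.6 CPM and PNO pups at 37.9, 43.7 and 59.0 CPM, overlapping between 37.9 and 42.6 CPM. Its difference was -0.46 ± 0.14 (adjusted p = 0.152 by edgeR).

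The extreme values of complex IV belonged to its low alternative forms. Cox6a2 was at 1.71, 3.82 and 9.01 CPM in IUO and 2.04, 8.81 and 20.2 CPM in PNO, a difference of -1.26 ± 0.55 with nearly full overlap at the low end. Cox7a1 was at 0.584, 0.834 and 1.02 CPM in IUO and 0.940, 1.42 and 2.15 CPM in PNO (-0.78 ± 0.26), and Cox6b2 differed by -0.74 ± 0.27. These genes have few counts. Of the abundant forms, Cox7a2 differed by -0.38 ± 0.16, Cox8a by -0.29 ± 0.15, Cox6a1 by -0.21 ± 0.14 and Cox4i1 by -0.18 ± 0.14, of which Cox7a2 alone had an unadjusted p under 0.05 (0.025 by edgeR). The 2 Cox6b1 rows differed alike, by -0.22 ± 0.14 and -0.23 ± 0.14.

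In ATP synthase the fitted values ran from -0.51 to -0.0080. Atp5i was at 68.5, 83.9 and 101 CPM in IUO and 87.6, 118 and 149 CPM in PNO (-0.51 ± 0.17, adjusted p = 0.179 by edgeR), and Atp5l, its partner in the membrane part, differed by -0.32 ± 0.14. The catalytic head is formed by Atp5b and Atp5a1. Atp5b was at 1613, 1663 and 1744 CPM in IUO and 1621, 1752 and 2085 CPM in PNO (-0.12 ± 0.07), and Atp5a1 at 837, 920.3 and 938 CPM in IUO and 825, 906 and 956 CPM in PNO (-0.0080 ± 0.06). Of the c subunit genes, Atp5g1 and Atp5g3 differed by -0.26 ± 0.16 and -0.24 ± 0.14, and Atp5g2 by -0.016 ± 0.11. Whether these subunits differ from each other was not tested.

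Mt-encoded members had a median close to that of the nuclear ones and, at the median, a wider error. Mt-co1 was at 18830.0, 28406 and 34024 CPM in IUO and 20954, 36498 and 39487 CPM in PNO, and the groups overlapped over most of that range. Its difference was -0.21 ± 0.21 (unadjusted p = 0.339, adjusted p = 0.654 by edgeR). Mt-cox3 had the widest difference of the 13, -0.37 ± 0.22 (adjusted p = 0.429 by edgeR), followed by Mt-nd2 at -0.32 ± 0.21 and Mt-nd3 at -0.28 ± 0.21. Mt-nd5 and Mt-nd6 were nearest to 0, at -0.040 ± 0.19 and -0.046 ± 0.20. The SE of an Mt-encoded member was between 0.19 and 0.23, with a median of 0.21, and that of a nuclear member between 0.055 and 0.55, with a median of 0.14. In limma-voom, which gives some libraries less weight, 6 of the 13 were lower in IUO at an unadjusted p under 0.05 (16.9% of all genes in that fit), with a median of -0.33, and Mt-cox3 had -0.53 ± 0.16 (adjusted p = 0.0426).

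Markers of oligodendrocytes, the myelin-forming cells, moved with these differences. Their 8 genes, all tested and none at 0 in any pup, summed to 2209, 3009.7 and 5638 CPM in the lowest, the median and the highest IUO pup, to 2928, 10332 and 14817 CPM in PNO and to 1728, 6319.6 and 9313 CPM in SAL. All 8 were lower in IUO than in PNO at an unadjusted p under 0.05, with a median of -1.37 and a smallest adjusted p of 0.102 by edgeR. The summed markers were correlated with the mean of the nuclear members at r = 0.53 and of the Mt-encoded members at r = 0.43 over 18 pups, and at r = 0.82 and 0.76 over the 17 pups other than PNO pup 1. That pup had the highest marker sum and the lowest member levels of its group. Inside the groups (6 pups each) r with the nuclear mean was 0.92 in SAL, 0.73 in IUO and -0.085 in PNO, and with the Mt-encoded mean 0.80, 0.64 and 0.083. Over 18 pups the nuclear mean was more closely related to the sums of endothelial markers (r = 0.72) and muscle markers (r = 0.67), as was the Mt-encoded mean (r = 0.57 and 0.71). These were not recomputed without PNO pup 1. Neither these sums nor that of the oligodendrocyte markers separated the groups. Endothelial markers lay at 155 to 218 CPM in SAL, 154 to 245 in PNO and 162 to 204 in IUO. Muscle markers lay at 27.1 to 37.8, 25.6 to 40.2 and 23.9 to 34.2 CPM.

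**Figure D4:**
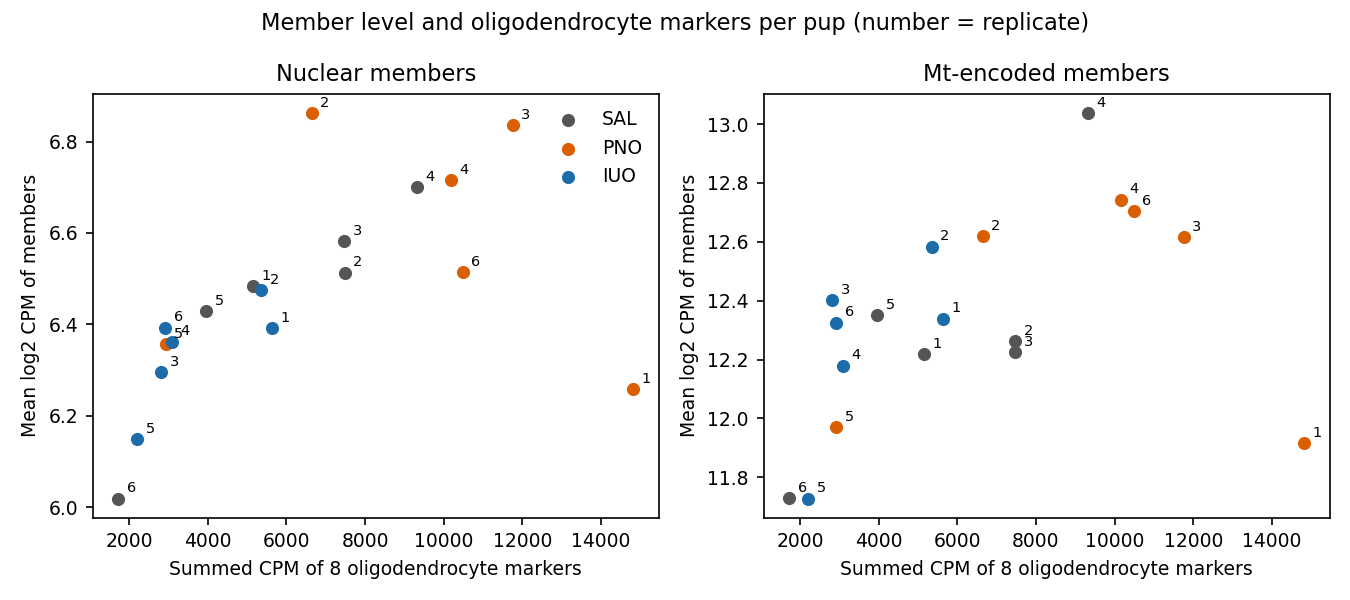
Mean log2 CPM of the nuclear members (left) and the Mt-encoded members (right) against the summed CPM of 8 oligodendrocyte markers, one numbered point per pup, coloured by group. IUO pups reach 5638 CPM of markers at most, while 4 of 6 PNO pups lie at 10173 CPM or higher, and PNO pup 1 lies apart at 14817 CPM.

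With the oligodendrocyte score as a covariate in the model, 2 members were lower and 1 was higher in IUO than in PNO at an unadjusted p under 0.05, where 4.2% and 5.07% of all genes were. The Mt-encoded median then turned to 0.16, with 12 of 13 above 0, and the nuclear median was -0.044. For PNO against SAL the same covariate moved the medians to -0.044 and 0.041, and for IUO against SAL to 0.12 and -0.0079. With a striatal score in its place, 50 members were lower in IUO than in PNO (9.14% of all genes), 35 of them among the 37. Other marker lists also had fitted values away from 0 between IUO and PNO. The 7 striatal genes had a median of 0.88, with 0 at an unadjusted p under 0.05, and the 6 choroid plexus genes one of -1.26, also with 0. Of 6 astrocyte genes 3 were lower and of 4 blood rows 2 were higher at that p. The part of any of these cell types in the differences was not tested further.

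Single pups also moved the count. Between 15 and 62 members were lower in IUO than in PNO at an unadjusted p under 0.05 when each of the 12 pups was left out. The count was 15 without IUO pup 5 or PNO pup 2, 16 without PNO pup 3, 20 without PNO pup 4 and 22 without IUO pup 3, fits in which 7.07 to 7.65% of all genes were lower. It was 62 without PNO pup 1, where 12.9% of all genes were lower. Without SAL pup 6 and PNO pup 1, the libraries of lowest weight, it was 72, including all 37, where 14.2% of all genes were lower. In that fit 6 members had an adjusted p under 0.05 by edgeR (smallest 0.0430), as did 222 of 15693 genes, and none of the 6 reached 1.5-fold. With 1 pup left out the medians stayed below 0, between -0.32 and -0.19 for nuclear and between -0.29 and -0.11 for Mt-encoded members.

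The differences between IUO and PNO went with the length of the gene, a pattern examined after the values were seen. Nuclear members are short, with a median length of 726 bases against 2179 over all genes tested. Their medians were -0.35 for the 36 members under 600 bases, -0.23 for the 34 between 600 and 1200, -0.15 for the 18 between 1200 and 2400, and -0.13 for the 3 longer ones. Over all genes tested the same 4 bins had medians of -0.14, -0.085, -0.023 and 0.046. Spearman's rho between difference and length was 0.67 across the 91 nuclear members and 0.21 across all 15703 genes, which are not independent replicates. It was 0.56 and 0.032 for IUO against SAL and -0.34 and -0.26 for PNO against SAL. Between IUO and PNO the median of the members in each bin thus lay below that of all genes, and both medians became more negative as length decreased. The part of length in the differences was not tested.

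**Figure D5:**
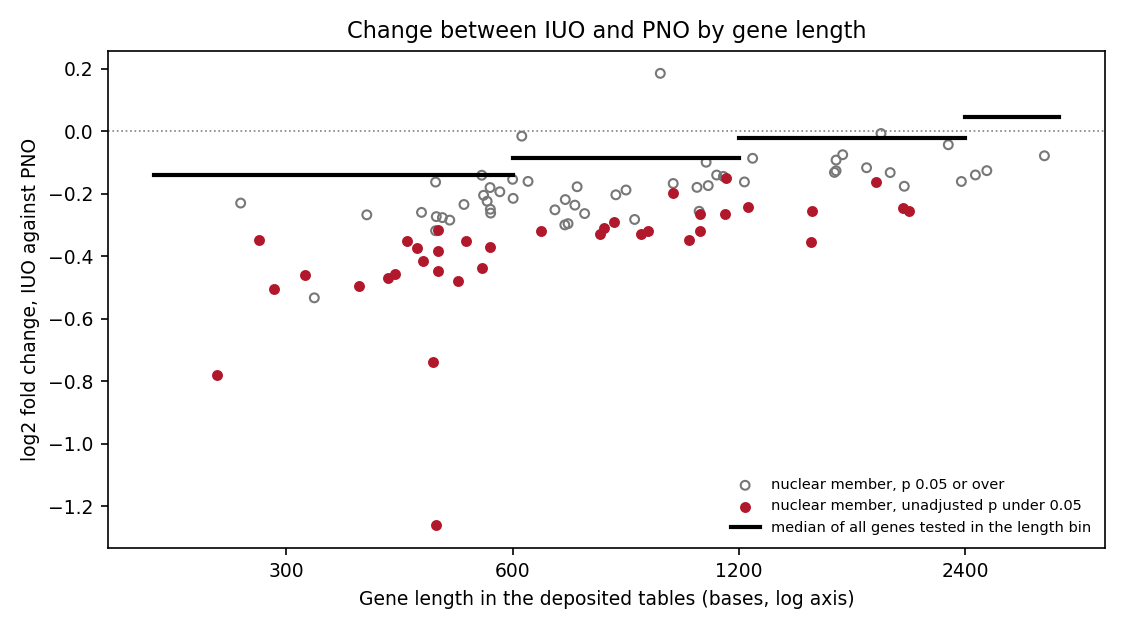
Fitted log2 fold change between IUO and PNO against gene length (bases, log axis) for the 91 nuclear members, filled in red at an unadjusted p under 0.05, with the median of all genes tested in each length bin as a black line. Medians of the members are -0.35 under 600 bases and -0.15 between 1200 and 2400 bases, against -0.14 and -0.023 for all genes.

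Other genes of mitochondrial energy metabolism were read from lists chosen with earlier results known, and none of their genes was called in any comparison. The mitochondrial ribosome (Mrpl and Mrps genes), which translates the Mt-encoded mRNAs and is the largest of these lists, had 20 of 73 genes lower in IUO than in PNO at an unadjusted p under 0.05 and 0 higher, with a median of -0.18. These counts, like those that follow, stand beside the 9.14% of all genes that were lower and the 6.14% that were higher. Assembly factors were lower in 1 of 7 for complex I, 2 of 4 for complex II, 2 of 6 for complex III, 3 of 17 for complex IV and 1 of 5 for complex V. Examples are Coa4, needed for cytochrome c oxidase, at -0.47 ± 0.15, and Uqcc2, needed for complex III, at -0.35 ± 0.15. For mitochondrial transcription and replication the number was 4 of 14 (median -0.13), for RNA processing 1 of 16 (median -0.097), for the citric acid cycle 4 of 11 (median -0.13) and for glycolysis, which is cytosolic, 5 of 16 (median -0.098), led by Pgk1 at -0.31 ± 0.08 and Tpi1 at -0.39 ± 0.10. In each of these lists 0 were higher at that p. The 1 of 7 and the 1 of 16 are near the share of all genes. Carriers of adenine nucleotides and porins gave 0 of 6 in either direction.

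The regulators of respiratory genes were divided in direction. Of 11, 7 had a fitted value above 0 between IUO and PNO, with a median of 0.10, 1 higher (Gabpb1, 0.22 ± 0.07) and 2 lower (Esrrg, -0.35 ± 0.15, and Esrra, -0.22 ± 0.10) at an unadjusted p under 0.05. Nrf1 differed by 0.11 ± 0.07, Gabpa by -0.13 ± 0.08 and the coactivator Ppargc1a by -0.016 ± 0.34. Among the factors that act on the mitochondrial genome, Tfam, which packages it, differed by -0.090 ± 0.08, the polymerase Polrmt by -0.016 ± 0.08 and Lrpprc, which stabilises its mRNAs, by 0.097 ± 0.07, none with an unadjusted p under 0.05. Against SAL these 6 genes had adjusted p-values of at least 0.837 by edgeR in both exposed groups. Over 18 pups the summed CPM of the 11 regulators ran against the mean of the nuclear members at r = -0.74. With the mean of the Mt-encoded members r was -0.79. The sum of the mitochondrial ribosome genes followed the nuclear mean at r = 0.99. The part of any regulator in the levels of the members was not tested.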

How the data were processed

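The PFC of 18 pups was sequenced (TruSeq V2, 75-base single reads, 1 flow cell), and pups were grouped by sample title. For each pup the authors deposited an expected count per gene, an unnormalized estimate that can share an ambiguous read among genes. The TPM values deposited by the authors are scaled to length and to a common total, and served to compare levels between genes. FPKM values deposited by the authors were not used. Aligner, quantification program, annotation and genome build are not given in the sources used here. No 2 pups had identical values.

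Rounded expected counts were fitted in edgeR 4.0.16 (R 4.3.3) with TMM factors, the filterByExpr filter and a quasi-likelihood model of the 3 groups with 15 residual degrees of freedom. The two-sided p-values were adjusted after Benjamini and Hochberg over 15703 genes. Calls needed an adjusted p under 0.05 and at least 1.5-fold. Log2 CPM used a prior count of 2. Shares are summed expected counts over the total of the pup. Alternatives were other size factors and filters, DESeq2 1.42.0, limma-voom (limma 3.58.1) with quality weights, marker scores as covariates, a replicate block, only the 12 pups compared, and each pup left out. Leaving out the 2 libraries of lowest weight and the counts at an unadjusted p under each alternative were added after seeing the data. The fits were tested on simulated data. Further computation was done in Python 3.11.15 (pandas 2.3.3, numpy 2.4.6, scipy 1.17.1, matplotlib 3.10.9).

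Members and lists were chosen with earlier results of these data known. The rule for named genes took all Mt-encoded members, the 3 nuclear members of each complex with the highest TPM and Cycs, the 5 with the smallest p in each comparison, alternative subunit forms, the 2 most and the 2 least variable members, and 6 regulators. Other genes named were chosen after their values were seen. Sums and medians over members carry no p.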

Additional observations from a re-analysis of the deposited data

Results flagged for a closer look

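In groups of 6 pups, a value was looked at again when its gap to the nearest other pup was a larger part of the range of the group than the critical value of Dixon's test allows. This was met by 12 of 150 groups of values tested, and chance flags about 1 in 20 groups, the values of 1 pup not being independent of each other. SAL pup 4 had 16.34% Mt-encoded counts, with the next SAL pup at 10.64%. The same pup was the highest of its group for Mt-nd5 (12.83 log2 CPM) and Cox7a1 (0.96). SAL pup 6 was the lowest of its group for Sdhd (6.8 log2 CPM), Uqcr11 (6.78), Cox7a2 (6.46), Atp5g1 (6.9) and the shorter Ndufv3 row (3.16). PNO pup 1 was the highest of its group for Ndufs1 (7.49 log2 CPM) and Sdha (7.88), which with Ndufaf1 ran against the other nuclear members, while it was the lowest of its group in the mean of the nuclear members (6.26). IUO pup 2 was the lowest of its group for Ndufs1 (6.92 log2 CPM), and IUO pup 1 for the shorter Ndufv3 row (1.63).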

How the results depend on the processing

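The count of members called was 0 in each comparison under every setting run except limma-voom, which called 2 of 104 between IUO and PNO, where 4.48% of all genes were called. Of the values recomputed without leaving out a pup, 186 stayed within 1 SD between pups (counts within 1.5 times) and 30 moved further. Members lower in IUO than in PNO at an unadjusted p under 0.05 numbered 37 as reported, 72 without the 2 libraries of lowest weight (2221 of all genes), 75 with limma-voom (2649) and 2 (with 1 higher) with the oligodendrocyte score as a covariate. For IUO against SAL the count lower was 1 as reported, 33 without those 2 libraries (993 of all genes in place of 607), 32 with limma-voom (1411), 2 without a filter (872) and without normalization (652), and 5 with the 12 pups compared (676 of 15436) or the striatal score (595), and 1 was higher with the oligodendrocyte score (592). For PNO against SAL the count higher was 3 as reported, 7 with limma-voom (563 of all genes in place of 297) and 1 without the 2 libraries, without normalization, with the oligodendrocyte score, with the 12 pups compared and with upper-quartile size factors (161 to 264 of all genes). The causes were not tested. As a percent of deposited TPM the Mt-encoded share was 21.4, 22.2 and 20.6 in SAL, PNO and IUO and the nuclear share 3.20, 3.32 and 2.97. The nuclear share without Mt-encoded counts was 1.59, 1.69 and 1.49. The difference of mean log2 CPM was 5.85, 5.84 and 5.92. Without normalization the median of all genes between IUO and PNO was 0.039.

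With each pup left out, the lowest and highest values were 15 and 62 members lower (IUO against PNO), 1 and 19 lower (IUO against SAL) and 1 and 11 higher (PNO against SAL). Medians for Mt-encoded members ran from 0.022 to 0.31 (PNO against SAL), -0.17 to 0.13 (IUO against SAL) and -0.29 to -0.11 (IUO against PNO), and for nuclear members from 0.059 to 0.21, -0.18 to -0.049 and -0.32 to -0.19.

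With the replicate block, 36 members (1386 of all genes) were lower in IUO than in PNO at an unadjusted p under 0.05, 34 of them among the 37. The numbers were not taken to pair the pups, since no 2 groups had all pairs over 0.1. Deviations of same-numbered pups were correlated at 0.232 on average between SAL and PNO (4 of 6 pairs over 0.1, and 4 of 6 pups closest to their own number, a hint from the data), 0.063 between PNO and IUO and -0.027 between SAL and IUO.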
